A study of Mus musculus with 4 samples.

Results

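The 26 immediate early genes and 9 heat shock genes described here were chosen by symbol, and each of the 35 symbols matched 1 of the 31053 rows of the gene by cell count matrices of newborn mouse kidney. Immediate early genes are transcribed within minutes of a signal, from factors already present in the cell, and most encode transcription factors or short-lived feedback regulators. Growth factor and stress signals reach them through MAP kinases and factors such as SRF and CREB, and enzymatic dissociation of tissue is itself known to induce them. Heat shock genes encode chaperones that fold or hold proteins, and HSF1 raises the inducible members after heat or other proteotoxic stress.

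Whole kidneys of newborn mice were dissociated into single cells, and 1 library was made for each of 2 genotypes. The control carried Six2Cre, and the other mouse carried Six2Cre with floxed alleles of Tet2 and Tet3 (labelled Six2CreTet2/3f/f, called the floxed library below), so by the genotype field the Cre transgene was present in both, although the title of the control sample reads SixCre. TET2 and TET3 oxidise methylated cytosine in DNA. Six2 drives Cre in nephron progenitors, whose descendants form the tubules and podocytes, whereas stroma, endothelium, blood cells and the ureteric bud are of other descent. The labels give newborn as the only age and number each library as replicate 1. The study's 2 bisulfite samples were not analysed here.

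After filtering, 19493 control cells (median 5993 UMIs, unique transcript molecules) and 14393 floxed cells (median 4781 UMIs) were kept, more than the 10000 cells loaded per library. The libraries shared 174 barcodes, of which 88 were kept in both. Cells were clustered without the 35 genes, and 12 classes were named "X-like" from marker genes. In 11 classes every marker exceeded its mean level in the other classes, and in nephron progenitor-like cells 8 of 9 did. Tet3 was at 90.2 CPM (counts scaled to a class total of 1000000) in control and 42.3 CPM in floxed progenitor-like cells. It was at 52.7 and 40.2 CPM in the stroma-like and 66.0 and 50.4 CPM in the endothelial-like class. Tet2 was at 27.4 and 21.6 CPM in progenitor-like, 43.7 and 39.0 CPM in stroma-like and 31.6 and 23.4 CPM in endothelial-like cells. For both genes, 3' tags can lie outside a deleted stretch and so do not check the genotype. Haemoglobin and other erythroid markers, 8 genes in all, summed to 704.5 to 3748 CPM in the control and 2336 to 27018 CPM in the floxed library across the 11 classes other than erythroid-like. Their part in the results below was not tested.

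With 1 library per genotype no test of genotype was possible, and genotype cannot be told apart from the animal, the dissociation or the library. Each ratio has an exact 95% interval that covers counting error only. A gene was counted as lower or higher, and is said to have fallen or risen, where its higher level was at least 25 CPM and the interval lay wholly beyond 1.5-fold.

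Many early-response genes fell in nephron progenitor-like and stroma-like cells, where 10 and 15 members were counted as lower, against 0 to 2 in each of the other 10 classes. In stroma-like cells (6185 control and 4685 floxed cells) 15 of the 27 members that reached 25 CPM fell and 0 rose. Over all genes in that class, 1.91% fell and 1.51% rose. In progenitor-like cells (2649 and 1595 cells) 10 of 23 fell and 2 rose, against 1.29% and 2.11% of all genes. All 25 of these lower calls belonged to early-response genes. The median log2 ratio of the early-response genes with a mean of at least 5 CPM was -1.12 in stroma-like and -0.74 in progenitor-like cells, where the medians of all genes were 0.01 and 0.05. The summed level of the 26 early-response genes was 5587 CPM in control and 2970 CPM in floxed stroma-like cells, and 5618 and 3376 CPM in the progenitor-like class.

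Podocyte-like, proximal tubule-like and committed nephron-like cells did not show this fall. In podocyte-like cells (1013 and 584 cells) 0 of 28 members fell and 2 rose, against 1.63% and 1.29% of all genes, and the early-response median was 0.02. In proximal tubule-like cells (630 and 438 cells) 0 of 25 fell and 2 rose, against 2.77% and 2.16%, with a median of -0.00. In committed nephron-like cells (1911 and 1413 cells) 1 of 27 fell and 2 rose, against 0.917% and 1.64%, with a median of 0.05. The summed early-response level was 6887 CPM in control and 7334 CPM in floxed podocyte-like cells, and 4124 and 4147 CPM in committed nephron-like cells. With 0 or 1 members lower and 2 higher in each class, the counts are too small to be set apart from the shares of all genes in either direction. The medians of all genes were 0.01, -0.06 and 0.00 in the same 3 classes.

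The remaining classes also had few called members. In endothelial-like cells (2542 and 1461 cells) 0 of 23 members fell and 2 rose, against 1.52% and 1.42% of all genes, and the summed early-response level was 3493 CPM in control and 3857 CPM in floxed cells. UB/CD-like cells (ureteric bud, collecting duct) had 2 of 30 lower and 0 higher (1.76% and 2.6% of all genes), LOH/DT-like cells (loop of Henle, distal tubule) 1 of 27 lower and 1 higher (2.66% and 1.65%), and mural and renin-like cells 2 of 25 lower and 0 higher (0.641% and 0.97%). Among blood cells, no member passed in macrophage-like cells (of 31, against 2.89% and 2.08%) or erythroid-like cells (of 20, against 0.519% and 1.61%), and 1 of 28 rose in neutrophil-like cells (1.12% and 0.977%). The mural and renin-like, neutrophil-like and erythroid-like classes held 109 to 363 cells per library, so their intervals were wide.

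**Figure D1:**
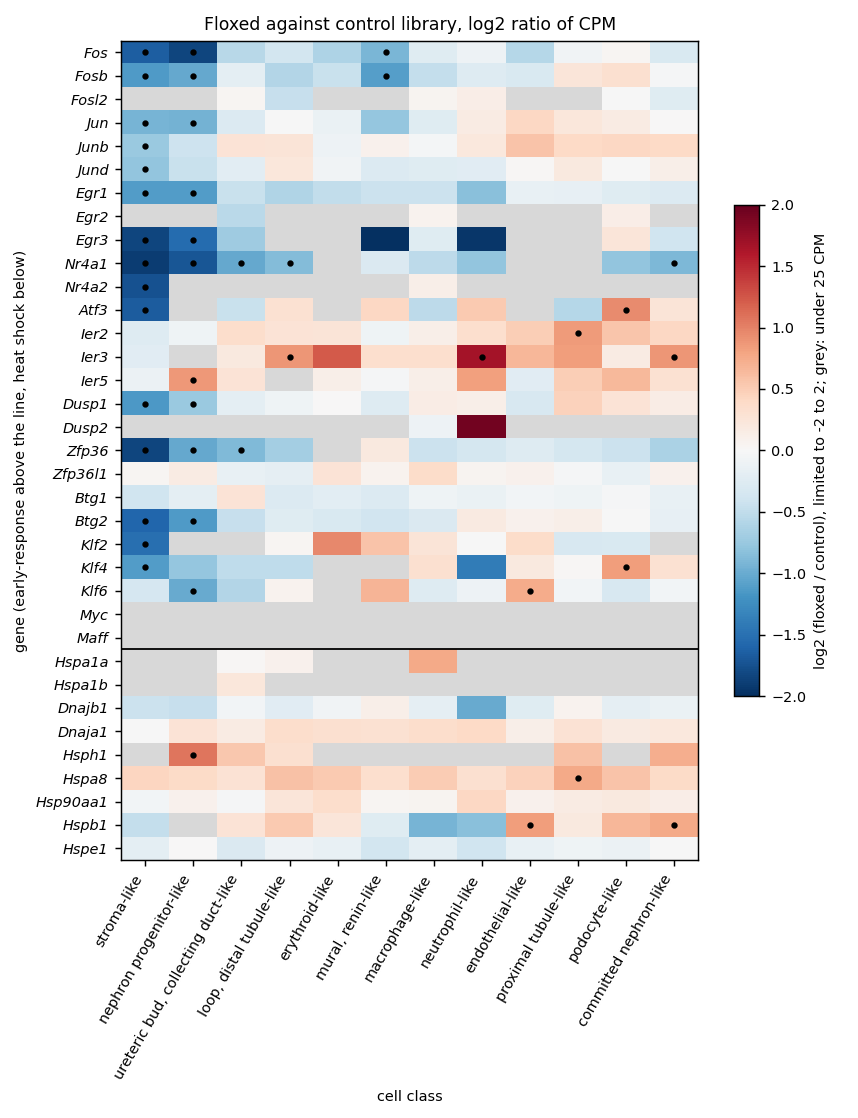
Log2 ratio of CPM, floxed over control, of the 35 genes (rows) in the 12 cell classes (columns, ordered by the early-response median); black dots mark genes counted as lower or higher and grey marks levels under 25 CPM. The 15 lower genes of stroma-like and the 10 of progenitor-like cells form the 2 blue columns at the left, and the heat shock rows show no such block.

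The difference between classes was itself outside the 1.5-fold bound for many members. Between progenitor-like and committed nephron-like cells, the log2 ratio was lower in progenitors for 10 of 23 members with the interval of the difference wholly beyond 1.5-fold, against 0.388% of all genes. Between progenitor-like and podocyte-like cells this held for 10 of 22 members, against 0.493%. Stroma-like cells were lower than podocyte-like cells for 16 of 26 members (0.921% of all genes), than endothelial-like cells for 15 of 23 (0.854%) and than mural and renin-like cells for 5 of 25 (0.457%). Between progenitor-like and stroma-like cells 0 of 22 members differed downward (0.127% of all genes) and 1, Ier5, upward (0.275%). Between podocyte-like and committed nephron-like cells 0 of 26 members differed in either direction (0.637% and 0.259% of all genes).

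FOS and JUN proteins pair to form the transcription factor AP-1, and Fos is its best known inducible subunit. The mouse Fos gene lies at chr12:85473890-85477274 (GRCm38.p6). Its level was 777 CPM in control and 218 CPM in floxed progenitor-like cells, 3.56-fold lower (95% interval 3.42 to 3.72). In stroma-like cells it was 924 and 296 CPM, 3.12-fold lower (3.04 to 3.2). It also fell in mural and renin-like cells, from 574 to 305 CPM (1.88-fold, 1.57 to 2.28). In endothelial-like cells it was at 233 and 156 CPM (1.49-fold lower, 1.38 to 1.6), which did not pass, although it did under 3 other settings.

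Elsewhere the Fos levels of the libraries lay closer together. They were 1032 and 1057 CPM in podocyte-like, 463 and 439 CPM in proximal tubule-like and 518 and 420 CPM in committed nephron-like cells. LOH/DT-like cells had 909 and 701 CPM, and UB/CD-like cells 1199 and 817 CPM. Macrophage-like cells had 1364 and 1155 CPM, neutrophil-like cells 1518 and 1412 CPM and erythroid-like cells 227 and 149 CPM. In the control library the stroma-like class ranked 5 of 12 and the progenitor-like class 7 of 12 for Fos. In the floxed library they ranked 9 and 10, above endothelial-like and erythroid-like cells alone.

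The promoter of Fos is shown because Fos had the largest fall in progenitor-like cells. It runs from 250 bases before to 50 bases after the transcription start, from RefSeq (GRCm38.p6, chr12:85473640-85473939, plus strand), with matches to TGACG, the core of the cAMP response element bound by CREB, and to TATAAA in capitals.
Fos: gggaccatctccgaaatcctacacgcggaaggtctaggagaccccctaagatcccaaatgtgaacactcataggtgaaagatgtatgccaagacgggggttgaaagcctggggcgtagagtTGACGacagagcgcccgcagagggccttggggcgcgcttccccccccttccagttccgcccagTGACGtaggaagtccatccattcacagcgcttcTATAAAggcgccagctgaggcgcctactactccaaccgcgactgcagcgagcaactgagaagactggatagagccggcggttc
The TGACG matches lay 129 to 125 and 66 to 62 bases before the start, and TATAAA lay 33 to 28 bases before it. TGACG on either strand occurred in a promoter window of 23% of all 27025 genes with a window and of 18 of the 29 members with one. TATAAA occurred in 15.7% of these genes and in 5 members.

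Fosb, a close relative of Fos, was at 318 CPM in control and 156 CPM in floxed progenitor-like cells (2.04-fold lower, 1.93 to 2.15). It was at 418 and 190 CPM in the stroma-like class (2.2-fold, 2.13 to 2.27) and at 297 and 139 CPM in mural and renin-like cells (2.14-fold, 1.63 to 2.84). Jun, the founding JUN family member, fell 1.92-fold (1.86 to 1.99) in progenitor-like cells, from 681 to 354 CPM. In stroma-like cells it fell 1.9-fold (1.85 to 1.95), from 522 to 275 CPM. In endothelial-like cells Jun was at 319 CPM in control and 427 CPM in floxed cells and in podocyte-like cells at 789 and 884 CPM.

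Of the 12 classes, Junb and Jund, the other JUN family members, fell in the stroma-like one, and Junb also fell in progenitor-like cluster 19 and unnamed cluster 12. Junb was there at 411 and 246 CPM and Jund at 592 and 341 CPM. In progenitor-like cells Junb had 237 and 178 CPM and Jund 799 and 584 CPM, with intervals inside 1.5-fold. Junb had a log2 ratio above 0 in 8 of the 12 classes, at 0.58 (0.50 to 0.65) in endothelial-like and 0.42 (0.34 to 0.50) in podocyte-like cells. Fosl2, another FOS relative, reached 25 CPM in 6 classes and passed in none. The small MAF protein gene Maff stayed under 25 CPM in all 12.

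Atf3, which encodes a stress-induced transcription factor of the ATF family, was called in opposite directions. In stroma-like cells it was at 25.7 CPM in control and 8.15 CPM in floxed cells, 3.16-fold lower (2.71 to 3.7), a call lost when cells were thinned to 2000 UMIs or weighted equally. In podocyte-like cells it was at 38.1 and 73.3 CPM, a ratio of 1.92 (1.61 to 2.3), a call lost under 4 of 14 other settings. It was at 37.5 and 45 CPM in committed nephron-like cells and at 43 and 28.9 CPM in proximal tubule-like cells, and neither passed.

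EGR1, EGR2 and EGR3 are zinc finger factors, and NR4A1 and NR4A2 are orphan nuclear receptors. Egr1 was at 1029 CPM in control and 477 CPM in floxed progenitor-like cells (2.16-fold lower, 2.1 to 2.22), with 963 and 443 CPM in the stroma-like class (2.17-fold, 2.13 to 2.22). Its log2 ratio was below 0 in all 12 classes, from -0.15 in endothelial-like to -1.12 in stroma-like cells. Of 2758 genes that reached 25 CPM in all 12 classes, 8.52% were below 0 in all. Egr3 fell from 81 to 27.9 CPM in the progenitor-like class (2.91-fold, 2.58 to 3.29) and from 26.3 to 7.4 CPM in the stroma-like class (3.55-fold, 3.03 to 4.19), the latter call lost when cells were thinned or weighted equally. Egr2 reached 25 CPM in 3 classes and passed in none.

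Nr4a1 fell in more classes than any other member, 5 of the 9 in which it reached 25 CPM. It was at 59.4 and 18.1 CPM in the progenitor-like class (3.28-fold lower, 2.83 to 3.81) and at 59.8 and 16 CPM in the stroma-like class (3.73-fold, 3.35 to 4.16). In UB/CD-like cells it was at 151 and 74.4 CPM (2.03-fold, 1.87 to 2.21), in LOH/DT-like cells at 71.8 and 39.3 CPM (1.83-fold, 1.58 to 2.12). In committed nephron-like cells, where the other called members rose, it was at 36.7 and 19.8 CPM (1.86-fold, 1.62 to 2.14), a call lost when cells were thinned to 2000 UMIs. Its log2 ratio was below 0 in all 9 classes. In podocyte-like cells it was at 84.3 and 48.7 CPM (1.73-fold, 1.45 to 2.07), which did not pass. Nr4a2 reached 25 CPM in 2 classes and fell in stroma-like cells, from 28.6 to 8.56 CPM (3.34-fold, 2.88 to 3.89), a call also lost when cells were thinned or weighted equally.

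**Figure D2:**
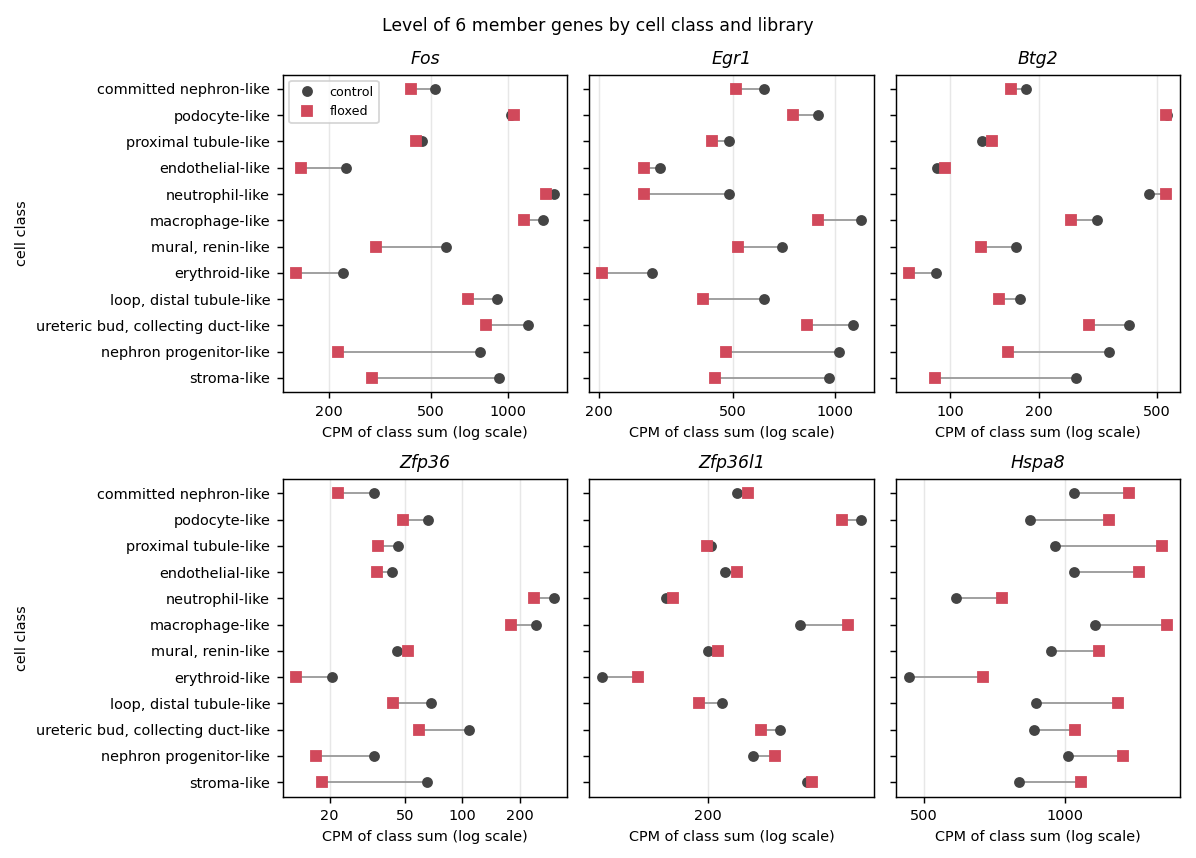
Levels of 6 members in CPM of the class sum (log axis) in the control (dark circles) and floxed library (red squares) for the 12 classes, with a line joining the libraries. The axis range differs between panels. Fos, Egr1, Btg2 and Zfp36 lie well to the left in floxed progenitor-like and stroma-like cells, Zfp36l1 shows no common direction and Hspa8 lies to the right in the floxed library in every class.

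The IER genes, named for their immediate early response, were not counted as lower in any class. Ier2, a nuclear regulator, was at 440 and 415 CPM in progenitor-like and 338 and 282 CPM in the stroma-like class, and neither passed. In proximal tubule-like cells it rose from 298 to 535 CPM, a ratio of 1.8 (1.71 to 1.89). Ier2 still had its lowest log2 ratio, -0.26, in stroma-like cells. Their difference from podocyte-like cells was -0.81 (-0.90 to -0.72), wholly beyond 1.5-fold. That of progenitor-like from podocyte-like cells, -0.63 (-0.73 to -0.54), was not. Ier3 rose in committed nephron-like cells from 22.7 to 41.7 CPM (ratio 1.84, 1.63 to 2.07), in LOH/DT-like cells from 183 to 338 CPM (1.84, or 0.88, 0.79 to 0.97, on the log2 scale) and in neutrophil-like cells from 139 to 441 CPM (3.17, 2.27 to 4.49). The committed nephron call was lost under 6 of 14 other settings. Ier5, which takes part in HSF1 control, rose in progenitor-like cells from 55.3 to 101 CPM (1.82, 1.68 to 1.97), against the direction of 10 other members there. That call was lost when no doublets were removed. In stroma-like cells Ier5 was at 74.3 and 68.6 CPM, and the difference between the classes was 0.98 on the log2 scale (0.84 to 1.12).

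Of the feedback regulators, Dusp1, Zfp36 and Btg2 fell in progenitor-like and stroma-like cells, while their relatives Dusp2, Zfp36l1 and Btg1 passed in no class. DUSP1 dephosphorylates MAP kinases, and Dusp1 was at 69 and 41.3 CPM in the progenitor-like class (1.67-fold lower, 1.51 to 1.86) and at 65.9 and 29.7 CPM in the stroma-like class (2.22-fold, 2.04 to 2.41). The progenitor call was lost under 5 other settings, with log2 ratios from -0.91 to -0.58 over all of them. In proximal tubule-like cells Dusp1 was at 82.2 and 113 CPM and in podocyte-like cells at 106 and 129 CPM. Its relative Dusp2 reached 25 CPM in 2 classes and passed in none.

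ZFP36 and ZFP36L1 both bind AU-rich elements and shorten the life of mRNAs, and the 2 genes differed. Zfp36 was at 34.1 and 16.9 CPM in the progenitor-like class (2.02-fold lower, 1.72 to 2.38), at 64.7 and 18.2 CPM in the stroma-like class (3.56-fold, 3.21 to 3.94) and at 109 and 58.8 CPM in UB/CD-like cells (1.85-fold, 1.68 to 2.03). The progenitor call was lost when cells were thinned to 2000 UMIs. Zfp36l1 was at 254 and 285 CPM in progenitor-like and at 337 and 347 CPM in the stroma-like class. Its log2 ratio stayed between -0.17 and 0.37 in all 12 classes and it passed in none.

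BTG1 and BTG2 are antiproliferative partners of the CCR4-NOT deadenylase. Btg2 was at 345 and 157 CPM in the progenitor-like class (2.2-fold lower, 2.09 to 2.32) and at 265 and 88.9 CPM in the stroma-like class (2.99-fold, 2.85 to 3.13), while in podocyte-like cells it was at 542 and 536 CPM. Btg1 was at 246 and 215 CPM in progenitor-like and 176 and 133 CPM in the stroma-like class and passed in no class. Its log2 ratio was nevertheless below 0 in 11 of the 12 classes.

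The promoters of Zfp36 (chr7:28379179-28379478, minus strand) and Btg2 (chr1:134079106-134079405, minus strand) are shown because both genes fell in every progenitor-like and stroma-like cluster, as described below. Capitals mark a CArG box, the motif of SRF, in Zfp36 and the full cAMP response element TGACGTCA in Btg2. Like the promoters of Fos, Hsph1 and Hspe1, they were chosen after the values and the matches were seen.
Zfp36: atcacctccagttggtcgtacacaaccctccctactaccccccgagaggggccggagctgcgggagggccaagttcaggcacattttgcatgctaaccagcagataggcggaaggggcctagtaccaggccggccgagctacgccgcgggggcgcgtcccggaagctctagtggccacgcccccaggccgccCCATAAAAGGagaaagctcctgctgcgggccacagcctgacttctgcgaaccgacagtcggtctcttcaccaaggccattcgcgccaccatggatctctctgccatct
Btg2: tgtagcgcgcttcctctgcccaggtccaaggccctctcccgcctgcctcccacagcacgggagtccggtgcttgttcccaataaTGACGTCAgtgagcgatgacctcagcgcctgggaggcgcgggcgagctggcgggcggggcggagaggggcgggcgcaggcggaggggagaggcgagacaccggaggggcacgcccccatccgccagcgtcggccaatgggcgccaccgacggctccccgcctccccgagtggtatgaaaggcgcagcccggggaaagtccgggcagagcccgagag
The CArG box lay 58 to 49 bases before the Zfp36 start, and 1.81% of all genes with a window held a CArG box. Of the 29 members with a window, Zfp36 and Egr2 held one. Egr1, Egr3, Ier2, Myc, Hspa8 and Hsp90aa1 had no window, and sites outside the windows were not searched. TGACGTCA lay 166 to 159 bases before the Btg2 start and occurred in 2.03% of all genes and in 3 members, Dusp1, Btg2 and Maff. An EGR site, GCGGGGGCG, occurred in 3.31% of all genes and in 8 members, including Zfp36, Fosb, Nr4a1, Klf2 and Klf4. TGACTCA, the AP-1 site, occurred in 5.95% of all genes and in 0 members. Both strands were searched. A match is a description of letters, not a bound site.

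KLF2, KLF4 and KLF6 are zinc finger transcription factors. Klf2 fell in stroma-like cells, from 97.3 to 34.3 CPM (2.84-fold, 2.63 to 3.06), and was under 25 CPM in the progenitor-like class. In endothelial-like cells, where KLF2 responds to blood flow, it was at 399 and 516 CPM. Klf4 fell in stroma-like cells, from 56.5 to 26.1 CPM (2.17-fold, 1.98 to 2.37), and rose in podocyte-like cells, from 52.7 to 94.1 CPM (ratio 1.79, 1.53 to 2.08). The podocyte call was lost under 6 of 14 other settings, and under 5 settings Klf4 was counted as lower in the progenitor-like class, where it was at 39 and 22.8 CPM. Klf6 fell in progenitor-like cells from 29.5 to 14.7 CPM (2.01-fold, 1.69 to 2.39), a call lost when no doublets were removed, and rose in endothelial-like cells from 77.1 to 129 CPM (ratio 1.68, 1.53 to 1.84), a call lost under 3 settings. Myc, the growth regulator, stayed under 25 CPM in all 12 classes.

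No heat shock gene was counted as lower in any class. The median log2 ratio of the heat shock genes was 0.18 in progenitor-like, 0.30 in committed nephron-like, 0.56 in podocyte-like, 0.18 in proximal tubule-like and -0.08 in stroma-like cells. Their summed level was 2755 CPM in control and 3200 CPM in floxed progenitor-like cells, 2518 and 3118 CPM in podocyte-like cells, 2971 and 3748 CPM in proximal tubule-like cells and 2401 and 2579 CPM in the stroma-like class. The heat shock sum was higher in the floxed library in every class. In progenitor-like and stroma-like cells the early-response sum was lower in that library. The early-response sum was also lower in LOH/DT-like, UB/CD-like, mural and renin-like, macrophage-like and erythroid-like cells. Opposite directions of the sums were thus not particular to progenitor-like cells.

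Hspa8, the constitutive HSP70 that also uncoats clathrin vesicles, had a log2 ratio above 0 in all 12 classes, from 0.29 in UB/CD-like to 0.76 in proximal tubule-like cells. Of all genes at 25 CPM in the 12 classes, 8.09% were above 0 in all. It was at 1018 and 1329 CPM in progenitor-like (ratio 1.31, 1.28 to 1.33), 843 and 1245 CPM in podocyte-like (1.48, 1.42 to 1.54) and 800 and 1083 CPM in the stroma-like class (1.35, 1.33 to 1.38). In proximal tubule-like cells it was counted as higher, at 951 and 1611 CPM (1.69, 1.64 to 1.74). That call was lost under the stricter cell filter, with a log2 ratio of 0.62.

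Hsph1, an HSP110 exchange factor for HSP70, rose in progenitor-like cells from 13 to 27.3 CPM (ratio 2.1, 1.79 to 2.46), a call lost when cells were thinned to 2000 UMIs. It was at 19.3 and 28.9 CPM in proximal tubule-like cells (1.5, 1.2 to 1.87), at 14.9 and 21.2 CPM in stroma-like and at 10.1 and 15.6 CPM in podocyte-like cells, the last 2 under the minimum. Hspb1, a small heat shock protein, was at 22.5 and 16.1 CPM in progenitor-like, 98.2 and 155 CPM in podocyte-like (ratio 1.58, 1.41 to 1.77), 34.4 and 39.5 CPM in proximal tubule-like and 94.7 and 68.4 CPM in the stroma-like class (0.722, 0.681 to 0.765), none of which passed. In committed nephron-like cells it was counted as higher, at 29.8 and 50.4 CPM (1.69, 1.52 to 1.88). That call was lost under 10 of 14 other settings, and the log2 ratio turned to -0.19 under the stricter cell filter, -0.055 with no doublets removed and -0.20 at resolution 0.5. In endothelial-like cells Hspb1 was counted as higher, at 60.3 and 107 CPM (1.78, 1.61 to 1.97), a call lost under 6 settings.

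The remaining chaperones differed little between the libraries. Hsp90aa1, the inducible cytosolic HSP90, was at 676 and 715 CPM in progenitor-like (ratio 1.06, 1.03 to 1.09), 612 and 704 CPM in podocyte-like (1.15, 1.09 to 1.21), 516 and 579 CPM in proximal tubule-like (1.12, 1.07 to 1.17) and 442 and 424 CPM in the stroma-like class (0.96, 0.937 to 0.983). Hspe1, the mitochondrial co-chaperone HSP10, was at 519 and 522 CPM (1.01, 0.975 to 1.04), 373 and 345 CPM (0.924, 0.861 to 0.991), 972 and 913 CPM (0.939, 0.907 to 0.973) and 421 and 368 CPM (0.874, 0.852 to 0.897) in the same 4 classes. Dnaja1, an HSP40 co-chaperone, was at 453 and 547 CPM (1.21, 1.17 to 1.25), 527 and 594 CPM (1.13, 1.07 to 1.19), 425 and 523 CPM (1.23, 1.17 to 1.29) and 564 and 563 CPM (0.997, 0.976 to 1.02). All these intervals lay inside 1.5-fold.

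Dnajb1, the HSP40 that HSF1 induces strongly, was at 45.2 and 32.9 CPM in progenitor-like (ratio 0.728, 0.645 to 0.82), 47 and 41.4 CPM in podocyte-like (0.88, 0.715 to 1.08), 43.4 and 45.7 CPM in proximal tubule-like (1.05, 0.894 to 1.24) and 49.6 and 36.8 CPM in the stroma-like class (0.742, 0.685 to 0.803). The inducible HSP70 genes Hspa1a and Hspa1b, a near-identical pair whose reads may be split, stayed at or under 10.6 CPM in these 4 classes. Hspa1a reached 25 CPM in 3 other classes and Hspa1b in 1, and neither passed.

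Of the 29 members with a window, Hsph1 (chr5:149636287-149636586, minus strand) and Hspe1 (chr1:55087898-55088197, plus strand) held the heat shock element, GAANNTTC extended by NNGAA, on either strand. They are shown because one was called higher in progenitor-like cells and the other was at a ratio near 1. Capitals mark the element.
Hsph1: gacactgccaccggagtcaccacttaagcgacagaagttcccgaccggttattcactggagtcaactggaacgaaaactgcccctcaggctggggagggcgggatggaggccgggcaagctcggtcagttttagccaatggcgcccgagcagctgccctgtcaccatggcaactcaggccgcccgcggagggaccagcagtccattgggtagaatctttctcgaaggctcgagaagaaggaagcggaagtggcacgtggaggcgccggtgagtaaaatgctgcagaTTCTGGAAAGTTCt
Hspe1: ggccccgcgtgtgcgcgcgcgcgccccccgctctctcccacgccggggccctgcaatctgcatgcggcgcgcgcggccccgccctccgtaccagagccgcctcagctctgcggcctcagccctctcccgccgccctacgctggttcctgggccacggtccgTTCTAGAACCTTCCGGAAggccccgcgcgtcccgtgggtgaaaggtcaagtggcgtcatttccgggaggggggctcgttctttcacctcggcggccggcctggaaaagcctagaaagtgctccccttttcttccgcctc
Hsph1 had 2 promoter windows, of which 1 is shown, and the match lay 37 to 49 bases after the start of that window's transcript. In Hspe1 overlapping matches lay 89 to 77 and 84 to 72 bases before the start. The element occurred in 0.662% of all genes with a window. The shorter GAANNTTC or TTCNNGAA occurred in 17% of these genes and in 9 members.

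Single clusters showed how even the pattern was within a class. All 5 stroma-like clusters had 8 to 15 members lower and 0 higher, with early-response medians from -1.20 to -0.84. Over all genes, 1.08%, 1.22%, 1.71%, 1.56% and 1.55% fell in these clusters (4, 5, 10, 11 and 13) and 1.12%, 1.06%, 1.54%, 1.47% and 1.37% rose. Both progenitor-like clusters had 10 or 11 lower and 0 to 2 higher, with medians of -0.78 and -0.88, against 1.18% and 1.06% of all genes lower and 2.28% and 1.85% higher in clusters 18 and 19. Cluster 12, left unnamed because its score for progenitor markers (1.22) was less than 1 above that for stroma markers (0.60), had 13 lower and 0 higher and a median of -0.99, against 0.912% of all genes in each direction. The other 15 named clusters had 0 to 6 lower, 9 of them with 0, and medians from -0.35 to 0.42. Over all genes, 0.519% to 3.23% fell in those 15 and 0.836% to 3.58% rose, with 0.922% and 1.46% in committed nephron-like cluster 8, 0.772% and 1.99% in cluster 9, 1.39% and 1.32% in endothelial-like cluster 15, 1.07% and 0.842% in cluster 16, 1.41% and 0.836% in cluster 21 and 3.23% and 2.1% in cluster 23. In the shallow unnamed clusters 0 and 1 no member fell or rose, against 0.584% and 1.07% of all genes lower and 0.74% and 0.688% higher. Fos, Fosb, Jun, Egr1, Zfp36 and Btg2 were lower in all 7 progenitor-like and stroma-like clusters. Of 4170 genes at 25 CPM in all 7, 15 (0.36%) were lower in all, and these 6 members are among them, of 20 members tested.

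**Figure D3:**
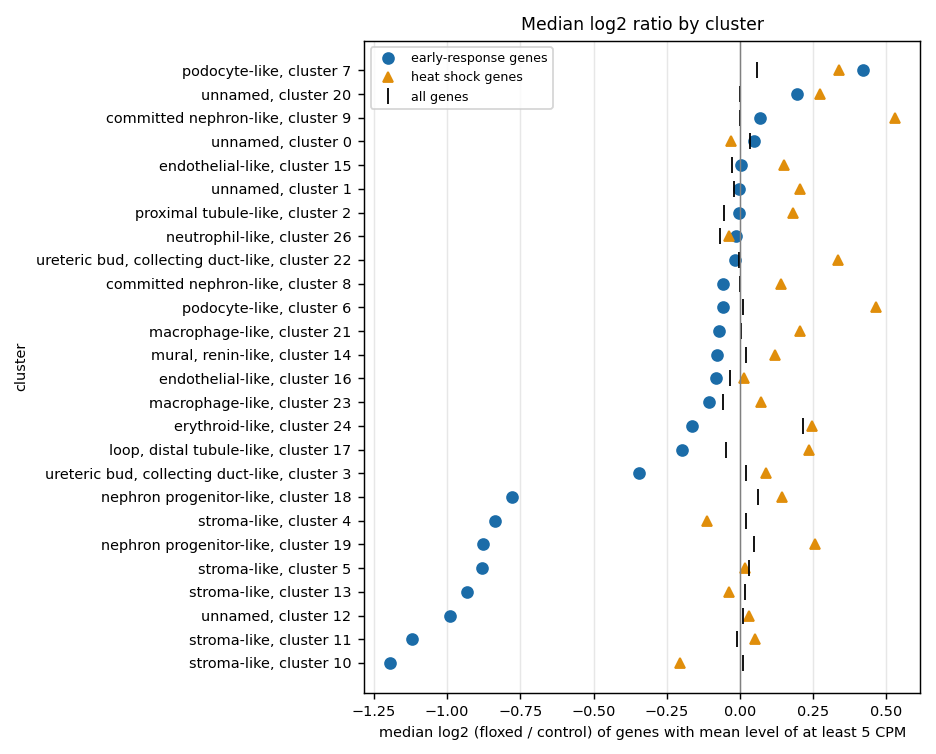
Median log2 ratio, floxed over control, by cluster for early-response genes (blue circles), heat shock genes (orange triangles) and all genes (black ticks), each over genes with a mean level of at least 5 CPM. The 7 progenitor-like and stroma-like clusters and unnamed cluster 12 lie at early-response medians of -0.78 or lower, and the next cluster is at -0.35.

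In podocyte-like cells the clusters differed. Cluster 6 (557 control and 485 floxed cells) and cluster 7 (456 and 99 cells) made up the class in unlike proportions in the 2 libraries. In cluster 6 Nr4a1 fell, from 99.3 to 50.6 CPM, and Klf4 rose, from 49.6 to 96.3 CPM, against 0.897% of all genes lower and 1.33% higher. In cluster 7 Atf3 rose from 7.86 to 27.4 CPM and Ier2 from 286 to 610 CPM, against 1.3% lower and 1.46% higher. With the cluster mix held at the control proportions, Atf3 and Klf4 no longer passed for the class as a whole. The summed early-response level was 7485 and 7354 CPM in cluster 6 (median log2 ratio -0.06) and 5541 and 7210 CPM in cluster 7 (median 0.42). Fos was at 1181 and 1076 CPM in cluster 6 and at 696 and 932 CPM in cluster 7.

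Single clusters of other classes also had members that moved. In UB/CD-like cluster 3 (372 and 493 cells) Fos, Nr4a1, Atf3, Dusp2, Zfp36 and Klf4 fell, against 2.4% of all genes lower and 3.58% higher, while in cluster 22 of the same class Nr4a1 and Zfp36 fell, against 0.965% and 1.77%. Cluster 20 (338 and 70 cells) scored highest for endothelial markers but was left unnamed, since its 10 leading genes held 0 of them and 1 marker of mural and renin cells. In it Fos fell from 425 to 179 CPM while Hspb1 rose from 265 to 866 CPM and Klf6 from 138 to 313 CPM, against 0.892% of all genes lower and 1.35% higher.

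At the level of cells, thinned to 2000 UMIs each so that depth was equal, the counts were lower in both classes with many lower members. The median number of early-response UMIs per cell was 10 in 2628 control and 5 in 1571 floxed progenitor-like cells, with 21 and 24 shallower cells left out. It was 8 in 6016 and 4 in 4502 stroma-like cells, with 169 and 183 left out. Cells with 20 or more such UMIs were 11.2% (exact interval 10.0 to 12.5) in the control and 2.74% (1.99 to 3.67) in the floxed library for the progenitor-like class. In stroma-like cells they made up 13.3% (12.5 to 14.2) and 1.58% (1.23 to 1.99). The intervals cover counting error only, since cells of 1 library are not replicates.

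In podocyte-like cells, where 99 of 584 floxed but 456 of 1013 control cells came from cluster 7 with its lower control level, the shift ran the other way, with medians of 9 and 12 early-response UMIs per cell and 14.1% (11.96 to 16.5) and 22.2% (18.7 to 25.9) of cells at 20 or more. Committed nephron-like cells had medians of 6 and 6, proximal tubule-like cells 5 and 7, and endothelial-like cells 6 and 7. Macrophage-like cells had the highest medians of these genes, 19 and 18. Erythroid-like cells had the lowest, 2 and 2.

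Fos was detected in 57.1% (control) and 26.2% (floxed) of the progenitor-like class at 2000 UMIs (80.9% and 47.6% unthinned, at median depths of 7648 and 6229 UMIs) and in 57.7% and 28.5% of stroma-like cells (75.6% and 46.4% unthinned, at 5597 and 4414 UMIs). Every class had Fos UMIs, so none gives a background share, and the part of free RNA was not tested. The erythroid-like class, with the lowest Fos level, had 23.5% and 13.9% (39.5% and 29.8% unthinned) at median depths of 4501 and 4019 UMIs. Zfp36l1, by contrast, was detected in 35.8% and 43.2% of progenitor-like and in 45.0% and 48.0% of stroma-like cells at 2000 UMIs (78.0% and 76.2%, and 76.1% and 71.9%, unthinned).

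**Figure D4:**
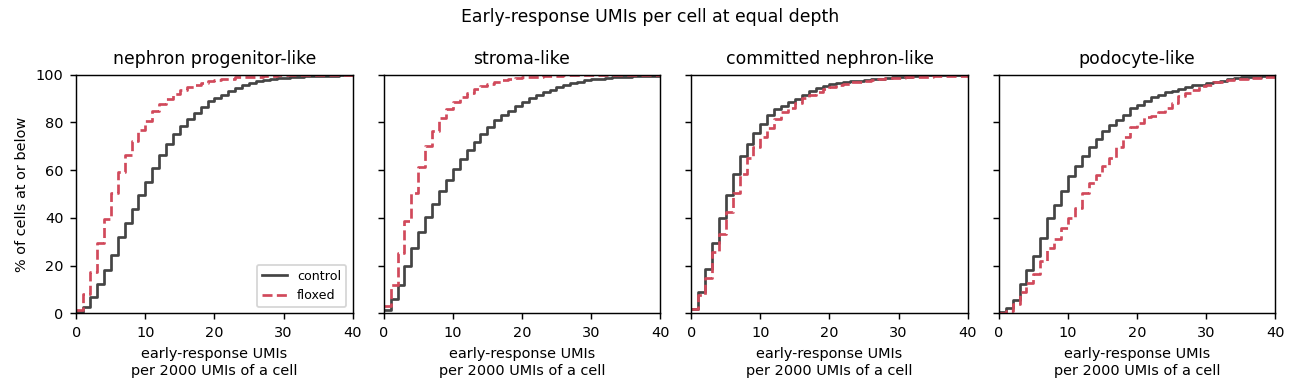
Cumulative share of cells (percent, vertical axis) by number of early-response UMIs after thinning to 2000 UMIs per cell, for control (dark, solid) and floxed cells (red, dashed) of 4 classes. The floxed curve lies to the left in progenitor-like and stroma-like cells (medians 5 against 10 and 4 against 8), near the control curve in committed nephron-like cells and to the right in podocyte-like cells (12 against 9).

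Cells were also compared within ranges of depth. In progenitor-like cells the early-response median was -0.31, -0.61, -0.76 and -0.83 among cells of 1000 to 3000, 3000 to 6000, 6000 to 12000 and 12000 or more UMIs. In stroma-like cells it was -0.45, -0.93, -0.999 and -0.90. In podocyte-like cells it was 0.76, 0.39 and 0.24 in the first 3 ranges. In proximal tubule-like cells it was 0.68, 0.18 and 0.07 in the last 3 ranges, and in committed nephron-like cells 0.50, 0.36 and -0.17. The level itself moved with depth: in control stroma-like cells the summed early-response level was 2823 CPM in the shallowest and 6833 CPM in the deepest range. The libraries differed in median depth in most classes, so sums over all cells mix these ranges in unlike shares.

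**Figure D5:**
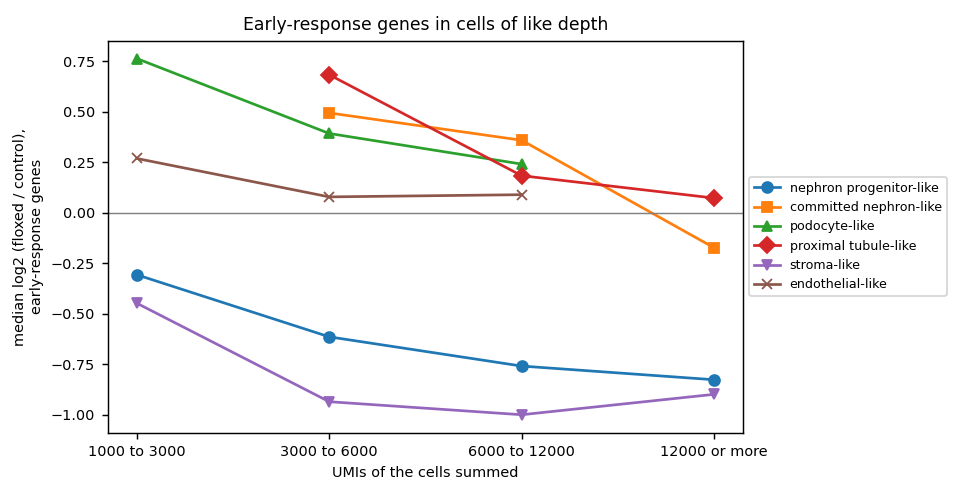
Median log2 ratio of the early-response genes, floxed over control, for cells grouped by their own UMI number, in 6 classes with at least 50 cells per library in each range plotted. Progenitor-like and stroma-like cells lie below 0 in all 4 ranges (-0.31 to -0.999), endothelial-like, podocyte-like and proximal tubule-like cells lie above 0, and committed nephron-like cells cross from 0.50 to -0.17.

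Markers of myeloid cells, the classes with the highest summed early-response level, were low in progenitor-like and stroma-like cells, and none was at 0 in both libraries. In progenitor-like cells 7 macrophage markers summed to 25.8 CPM in control and 25.4 CPM in floxed cells and 7 neutrophil markers to 22.4 and 37.6 CPM. In stroma-like cells the sums were 26.7 and 26.1 CPM for macrophage and 29.2 and 43.3 CPM for neutrophil markers. Proximal tubule markers, 9 genes, summed to 114 and 56.1 CPM in progenitor-like and 143 and 61.4 CPM in the stroma-like class, endothelial markers, 8 genes, to 98.0 and 58.6 CPM and to 150 and 89.7 CPM, and erythroid markers to 1093 and 4408 CPM and to 2029 and 5877 CPM. Of 10 genes of cell and RNA quality (8 mitochondrial mRNAs, Malat1 and Neat1), Neat1 fell in both classes, from 146 to 34.9 CPM and from 49.8 to 23.2 CPM, and no other passed there. Neat1 was not particular to them, since it also fell in podocyte-like, proximal tubule-like, macrophage-like and erythroid-like cells. The part of these differences in the fall of the early-response genes was not tested.

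Other genes of the same programs showed the fall less clearly, and some of them fell in other classes. Of 39 further early-response genes, 37 were in the matrix. In stroma-like cells 24 reached 25 CPM, and 5 fell and 2 rose, against 1.91% and 1.51% of all genes. Gadd45b, a growth arrest and stress gene, was at 39.7 and 13.3 CPM there, Nfkbiz, an inhibitor-like regulator of NF-kB, at 26.3 and 8.81 CPM, and Sertad1 at 39.3 and 18.2 CPM. Ctgf, which encodes a matricellular target of YAP and SRF, rose from 12.4 to 43.3 CPM and Id3, a helix-loop-helix inhibitor, from 426 to 746 CPM. The list's median log2 ratio was -0.33 in stroma-like cells. UB/CD-like cells had 4 of 28 such genes lower and 0 higher (1.76% and 2.6% of all genes), with a median of -0.12. LOH/DT-like cells had 2 of 23 lower and 0 higher (2.66% and 1.65%), and macrophage-like cells 2 of 27 lower and 2 higher (2.89% and 2.08%). In committed nephron-like, mural and renin-like, endothelial-like, neutrophil-like and erythroid-like cells 0 fell.

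In progenitor-like cells 2 of 22 such genes fell, Cyr61 (108 and 51.5 CPM), a relative of Ctgf, and Sertad1 (33.4 and 18.9 CPM), and Id3 rose (421 and 666 CPM). Over all genes 1.29% fell and 2.11% rose in that class, and the list's median was -0.12. In proximal tubule-like cells 0 of 21 fell and 4 rose: Gadd45b (12.5 and 33.4 CPM), Dusp6 (20.7 and 42.9 CPM), Ppp1r15a (38.6 and 67.4 CPM) and Nfkbia (65.8 and 113 CPM). In podocyte-like cells 1 of 26 fell, Per1, and 1 rose, Ctgf. Over all genes 2.77% fell and 2.16% rose in proximal tubule-like cells, and 1.63% and 1.29% in podocyte-like cells. Gadd45b thus moved in opposite directions in stroma-like and proximal tubule-like cells.

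Of 29 further heat shock and chaperone genes, 24 reached 25 CPM in each of the progenitor-like and stroma-like classes. Chordc1, an HSP90 co-chaperone, was counted as higher in 7 of the 12 classes, at 28 and 51 CPM in progenitor-like and 29.5 and 50 CPM in the stroma-like class. Ubb, which encodes ubiquitin, fell in podocyte-like, stroma-like and mural and renin-like cells. Of 16 upstream kinases and factors, among them Srf, Creb1, Hsf1 and the MAP kinase genes, 0 were counted as lower or higher in any of the 12 classes, with 4 to 9 at 25 CPM.

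Each member enters the early-response median, which raises its correlation with that median. Across the 12 classes, the member whose log2 ratio followed the early-response median most closely was Btg2 (Pearson r 0.96), before Dusp1 (0.90), Junb (0.89) and Fos (0.88). Zfp36l1 (-0.05) and the heat shock gene Hspe1 (-0.13) did not follow it. Among 2742 non-member genes at 25 CPM in every class, which are not part of the median, the highest values belonged to Myl6 (0.78), Glud1 (0.76), Ppp1r15a (0.68), Cyr61 (0.68), Wdr1 (0.65), Slc25a5 (0.63), Eif3k (0.60), Timm17a (0.59), Nfkbia (0.58) and Tagln2 (0.58). These coefficients describe 12 classes that share their 2 libraries.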

How the data were processed

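Single-cell RNA-seq of whole newborn kidney was deposited by the authors as 1 gene by barcode matrix of raw UMI counts per library. Cell Ranger 6.0.2 and the mm10 build are named by the submitters' processing notes, while 6.0.1 stands in the matrix header, per the file headers. Neither annotation release nor strand setting is given in the sources used here. The 35 members and the gene lists were chosen with earlier results of these data known.

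Barcodes with at least 1000 UMIs, 500 genes and under 15% mitochondrial UMIs were kept (21188 of 25736 control and 15645 of 22543 floxed barcodes; total counts 197745868 and 115427704). The doublet caller in scanpy 1.11.5 marked 0 in both libraries and had not worked, so the top 8% by doublet score was left out of each library (1695 and 1252). Cells of both libraries entered 1 clustering, with no batch correction, on 2000 variable genes, leaving out all members and the other early-response and heat shock genes (30 components, 15 neighbours, Leiden resolution 1, igraph 0.11.9), which gave 27 clusters, 26 of them with at least 50 cells per library. Names needed a marker score of 0.5, 1 above the next class, and 2 in clusters of low depth, and no more markers of another class than of its own among the 10 leading genes. These rules were set after the clusters, and the last one after the values, were seen and left 2041 control and 1519 floxed cells unnamed. UMIs were summed per class and divided by the class total. Medians use genes with a mean of at least 5 CPM. Intervals for ratios are exact conditional binomial (scipy 1.17.1), those for shares Clopper-Pearson, all at 95%. The size rule was tested on simulated counts. Members described were those called in most classes, called against their class or in both directions, and every heat shock member in 4 classes; from other lists the called genes with the largest changes. Promoter windows were given for 29 of the 35 members. The effect of 13 other settings, and of 1 added after the data were seen, is in the closing section.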

Additional observations from a re-analysis of the deposited data

Results flagged for a closer look

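Called members moved in opposite directions in 3 cases, which drew attention to them. The log2 ratio of Atf3 in podocyte-like minus stroma-like cells was 2.60 (95% counting interval 2.27 to 2.94), and that of Klf4 was 1.95 (1.70 to 2.20). The log2 ratio of Klf6 in endothelial-like minus progenitor-like cells was 1.75 (1.48 to 2.03). With 1 library per genotype none of these differences was tested against variation between animals. The podocyte call of Atf3 was lost under 4 of 14 other settings and that of Klf4 under 6, and the endothelial call of Klf6 was lost under 3 and its progenitor call under 1.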

How the results depend on the processing

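The 14 alternatives were run for 6 classes: progenitor-like, committed nephron-like, podocyte-like, proximal tubule-like, stroma-like and endothelial-like. The number of members lower in stroma-like cells stayed at 12 to 15 with 0 higher, and in progenitor-like cells 9 to 11 were lower. The main counts, lower then higher, were 10 and 2 in progenitor-like, 1 and 2 in committed nephron-like, 0 and 2 in podocyte-like, 0 and 2 in proximal tubule-like and 0 and 2 in endothelial-like cells. With TMM factors, or a class total without members, mitochondrial, ribosomal and haemoglobin genes, 1 was higher in committed nephron-like cells. With a minimum of 5 CPM or none, 1 was lower in proximal tubule-like cells, and Hspa1a joined the higher members of committed nephron-like and podocyte-like cells (3 each). Under the stricter cell filter 2 were lower and 0 higher in committed nephron-like, 1 and 1 in podocyte-like and 1 and 1 in proximal tubule-like cells, and 0 were higher in endothelial-like cells. Under the looser filter 0 were higher in committed nephron-like and podocyte-like and 1 in endothelial-like cells. With no doublets removed 1 was higher in each of the progenitor-like, committed nephron-like, podocyte-like and endothelial-like classes, 2 were lower in podocyte-like cells and 1 was lower in proximal tubule-like and endothelial-like cells. With the 10000 deepest barcodes 0 were higher in committed nephron-like cells, 1 lower and 0 higher in podocyte-like and 1 lower and 1 higher in endothelial-like cells. Clustering with the members left 0 higher in committed nephron-like and 1 in podocyte-like cells. At Leiden resolution 0.5, 5 were lower (Fos, Egr1, Egr3 and Btg2 joined Nr4a1) and 1 higher in committed nephron-like, 1 lower in proximal tubule-like and 1 lower and 0 higher in endothelial-like cells. With floxed cells assigned to control clusters 0 were higher in committed nephron-like, 1 lower in podocyte-like, 1 lower and 4 higher in proximal tubule-like and 1 higher in endothelial-like cells. Thinned to 2000 UMIs, 1 was higher in progenitor-like and 0 lower and 1 higher in committed nephron-like cells. Thinning also added Ier3 to the higher members of proximal tubule-like and Junb to those of endothelial-like cells. In podocyte-like cells it added Ier2 and lost Klf4. With cells weighted equally, Ier2 was added in podocyte-like and Junb in endothelial-like cells, and Dusp1 was lost in progenitor-like cells. With the cluster mix held at control proportions, an alternative added after the data were seen, 1 was lower and 0 higher in podocyte-like cells and 1 higher in endothelial-like cells. Ier3 was counted as higher in proximal tubule-like cells under 6 alternatives and Nr4a1 as lower under 6.

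Of 504 values of single genes, 405 stayed within their counting interval or call, 95 moved, and 4 reversed. These were Hspb1 in committed nephron-like cells, at -0.19 under the stricter filter, -0.055 with no doublets removed and -0.20 at resolution 0.5, and Hspb1 in endothelial-like cells, at -0.31 under the stricter filter. The causes were not tested. TMM moved the median of all genes by -0.07 to 0.05. No paired analysis was possible because each genotype has 1 library. Myc, Maff and the inducible HSP70 genes lay under 25 CPM in most classes, so the size rule makes no call on them there.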
